A study of Canis lupus familiaris with 7 samples.

Results

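Expression of 10 genes was followed across canine osteosarcoma (OSA) and bone: the receptor tyrosine kinases KIT, PDGFRA, PDGFRB, MET, AXL, FGFR1 and FGFR2, and the ligands KITLG, HGF and GAS6. They were chosen by name, as 7 receptors targeted by kinase inhibitors together with the ligands of KIT, MET and AXL, and all 10 were found among the 24580 genes of the expression table. Of these, 9 were listed under their own symbol, and FGFR2 was listed as FGFR2IIIC, which RefSeq gives as a synonym of FGFR2. That name is of the IIIc form of the receptor, and the table holds 1 value per sample for the gene. RNA sequencing had been performed on 7 tissue samples of dogs, 3 of OSA (T1, T3 and T10) and 4 of grossly non-malignant bone (N1, N3, N8 and N9). Tissue was taken by veterinary surgeons at amputation or just after euthanasia, OSA was diagnosed by histopathology, and the non-tumor pieces came from bone next to a tumor, so the controls were not bone of healthy dogs. The labels give no treatment, age or breed for these samples and do not say which samples came from the same dog, so the p-values measure the spread between these 7 samples alone.

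A receptor tyrosine kinase spans the cell membrane. Binding of its ligand pairs receptor molecules, which then phosphorylate each other and recruit adaptors that switch on the RAS-MAPK and PI3K-AKT cascades. KIT is best known from mast cells and blood stem cells, the PDGF receptors from mesenchymal cells and pericytes, the FGF receptors from the bone lineage, and MET and AXL from cell migration and invasion. Toceranib, a kinase inhibitor licensed for dogs with mast cell tumors, acts on KIT and the PDGF receptors.

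Values are in FPKM, the fragments assigned to a gene scaled to its transcript length and to the fragments sequenced, so levels may be set side by side between genes. Between samples they also depend on the most abundant genes, since the FPKM of a sample summed to between 539647.5 (N1) and 1752340.3 (N8). Fold changes are differences, OSA tumor minus non-tumor, of mean log2(FPKM + 1), each with its standard error (SE) and tested with limma. A gene was called when the fold change was at least 2 with an unadjusted p under 0.05. Of 13507 genes that averaged 1 FPKM or more, 926 (6.86%) were called, 443 (3.28%) higher and 483 (3.58%) lower in OSA, and the samples of the 2 groups did not overlap for 790 (5.85%). With limma, 0 genes had a Benjamini-Hochberg adjusted p under 0.05, 927 had an unadjusted p under 0.05, and the smallest adjusted p was 0.693. When each sample was rescaled to one common FPKM total, 3 genes had an adjusted p under 0.05.

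The sample labelled N1 stood apart from the other non-tumor samples. Its nearest sample over all tested genes was T1, at a root mean square (RMS) difference of 0.762 on the log2 scale, whereas the next closest pair, N8 and N9, lay at 1.31. Summed markers of skeletal muscle came to 62.4, 1059, 61201 and 36309 FPKM in N1, N3, N8 and N9, against 2.19 to 5.85 in the tumors, and all 7 tested muscle markers were called lower in OSA. Granulocyte markers summed to 89.4 to 9839 FPKM in non-tumor samples and 0.756 to 67.7 in tumors (5 of 5 tested called lower), and erythroid markers to 38.1 to 4575 and 33.0 to 122 (5 of 9). Osteoblast markers, which define the labelled tissue, summed to 1881, 1283, 119 and 358 FPKM in N1, N3, N8 and N9, and to 4270, 1734 and 992 in T1, T3 and T10. Of these, SPP1 alone was at 590, 930, 95.7 and 267 FPKM in N1, N3, N8 and N9. It was at 1448, 1448 and 480 in T1, T3 and T10. SPP1 thus made up most of the sum in N3, N8, N9 and T3. SP7, a transcription factor of osteoblast maturation, was at 99.4 FPKM in N1 and 104 in T1, but at 1.26 in N3, 0.0833 in N8, 0.702 in N9, 0.991 in T3 and 7.59 in T10. Fragments behind a given FPKM ranged from 0.546 (N8) to 1.43 (T10) times those of N1, as read against N1. In 3 of 21 pairs of samples, all with N8, the ratio read directly differed from this by a factor of 2, so the depth of N8 is uncertain by that factor. The part of these differences in the results was not tested, and in whole tissue fewer cells of a type cannot be told apart from less RNA per cell.

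All 10 genes passed the filter, and 2 were called, FGFR2 higher and KITLG lower in OSA, beside 6.86% of all tested genes. Log2 fold changes were positive for 4 genes and negative for 6, with a median of −0.08, against −0.02 over all genes tested. The other 8 genes were not called, and the 95% intervals of their fold changes all spanned 0. The number called was 3 without N1, where 14.8% of all tested genes were called, 1 without N3, T1 or T10 (6.54%, 8.99% and 3.14%), and 0 without N8, N9 or T3 (2.36%, 5.09% and 4.46%). The 1 gene called was FGFR2 without N3, KITLG without T1 and PDGFRB without T10. N1 held the highest non-tumor value of 4 of the genes, and T10 the lowest tumor value of 5.

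**Figure D1:**
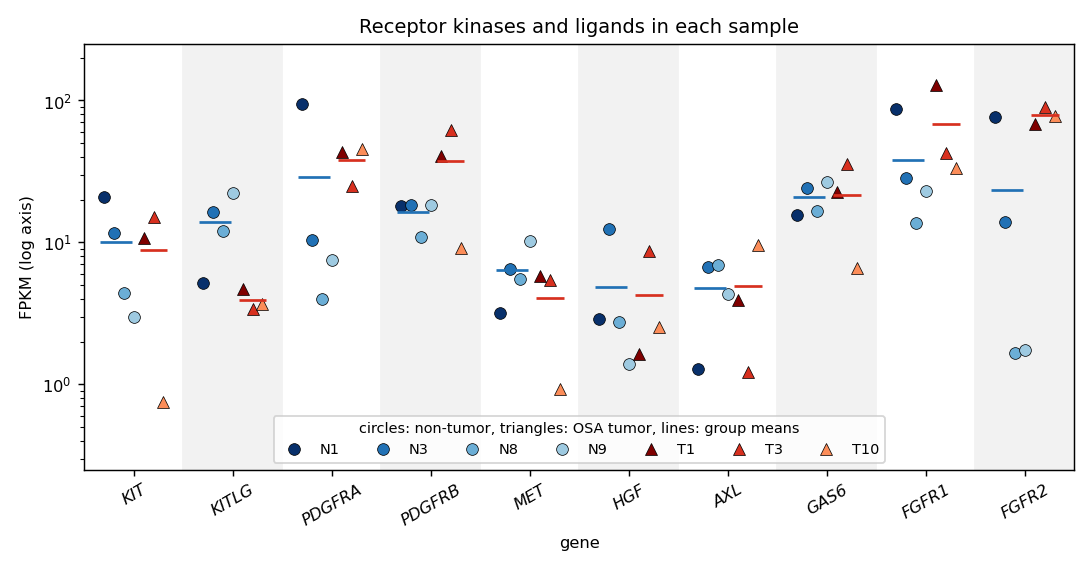
FPKM on a log axis of the 10 genes in each of the 7 samples, circles for non-tumor bone, triangles for OSA tumor and short lines for the group means. FGFR2 was between 68.7 and 90.2 FPKM in the tumors and 76.8 in N1, and KITLG was below every non-tumor sample in all 3 tumors.

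FGFR2 (ENSCAFG00000012374, CanFam3.1 chr28:31303479-31411575), an FGF receptor that takes part in bone formation, had the largest fold change of the 10. N1 had 76.8 FPKM, N3 14.0, N8 1.66 and N9 1.75, while T1 had 68.7, T3 90.2 and T10 78.3. The tumors were alike and high, while the non-tumor samples ran from near the filter to above T1, and the groups overlapped only through N1. The group means were 23.6 ± 36.0 (SD, n = 4) and 79.1 ± 10.7 FPKM (SD, n = 3). The log2 fold change was 3.05 (SE 1.08, 95% interval 0.62 to 5.48), with p = 0.0193 and adjusted p = 0.693 by limma, and p = 0.114 by an exact two-sided permutation test. The smallest p that this exact test can give with 4 and 3 samples is 0.0571. Without N1 the other non-tumor samples averaged 5.81 FPKM with a highest value of 14.0, and the log2 fold change was 4.05. The call was kept without N1 or N3 and was lost without N8 (2.43), N9 (2.45), T1 (3.14), T3 (2.95) or T10 (3.05). It was also lost with the sample number as a block over N1, T1, N3 and T3 (1.22), where FGFR2 was lower in T1 than in N1 and higher in T3 than in N3. Within each tumor FGFR2 lay between the 92.7th and 93.2nd percentiles of the tested genes, and in N8 and N9 at the 15.2nd and 18.7th. Those were the non-tumor samples with the highest muscle sums and the lowest osteoblast sums. RUNX2, the transcription factor that commits cells to the osteoblast lineage, was at 142, 60.1, 6.22 and 11.3 FPKM in N1, N3, N8 and N9 and at 130, 45.5 and 116 in T1, T3 and T10. Its part in the FGFR2 difference was not tested.

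FGFR1 (ENSCAFG00000005970, chr16:27037832-27100591), the FGF receptor most widely found in mesenchymal cells, was not called. Non-tumor bone had 86.5 (N1), 28.3 (N3), 13.6 (N8) and 23.1 FPKM (N9), and OSA had 127 (T1), 42.5 (T3) and 33.4 (T10). T1 was the highest sample and N1 the next, and N1 lay above both T3 and T10. The means were 37.9 ± 33.0 (SD, n = 4) and 67.8 ± 51.9 FPKM (SD, n = 3), and the log2 fold change was 0.90 (SE 0.71, 95% interval −0.70 to 2.51; limma p = 0.235, exact permutation p = 0.286). It was positive with each sample left out, between 0.33 and 1.41. The interval listed for FGFR1 is shared by 3 listed genes, LETM2 and a U6 RNA among them.

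The balance between the FGF receptors varied with the sample. FGFR1 was 1.13, 2.02, 8.21 and 13.2 times FGFR2 in N1, N3, N8 and N9, and 1.85, 0.471 and 0.427 times in T1, T3 and T10. FGFR2 thus exceeded FGFR1 in T3 and T10 and in no other sample. FGFR3, a relative that restrains cartilage growth, was at 77.6, 3.24, 0.986 and 2.23 FPKM in N1, N3, N8 and N9 and at 97.0, 2.75 and 16.9 in T1, T3 and T10, so that N1 and T1 were high and T3 was within the other non-tumor samples.

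Of 7 FGF ligands 5 passed the filter, and 0 of the 5 were called. FGF10, a mesenchymal ligand of the IIIb form of FGFR2, had the highest log2 fold change of the ligands, 1.70 (limma p = 0.0586, exact permutation p = 0.171), with 0.363 to 2.99 FPKM in non-tumor samples and 1.66, 23.3 and 5.45 in T1, T3 and T10. FGF7, which binds the same form of the receptor, reached 307 FPKM in T10 against 19.9 in T1 and 5.83 in T3, and lay between 7.09 and 78.0 in non-tumor bone (log2 fold change 0.89). FGF1 had the lowest log2 fold change, −0.93, with 16.9 FPKM in N9. FGF9 (−0.42) was at 0.847 to 3.17 FPKM in non-tumor samples and 0.405 to 1.42 in tumors. FGF23, a phosphate-regulating hormone of bone cells, was at 5.21 FPKM in T1 and at most 0.795 in every other sample (0.75). The highest values of FGF10, FGF7, FGF1 and FGF23 were thus in T3, T10, N9 and T1, a different sample for each.

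KITLG (ENSCAFG00000006091, chr15:29587867-29672329), stem cell factor and the ligand of KIT, was the gene called lower. The non-tumor samples N1, N3, N8 and N9 had 5.15, 16.4, 11.98 and 22.1 FPKM, and T1, T3 and T10 had 4.73, 3.40 and 3.65. Every tumor lay below every non-tumor sample, with N1 and T1 close together, and it was the only one of the 10 genes whose groups did not overlap, beside 5.85% of all tested genes. The means were 13.9 ± 7.18 (SD, n = 4) and 3.93 ± 0.706 FPKM (SD, n = 3). The log2 fold change was −1.45 (SE 0.54, 95% interval −2.67 to −0.24), with p = 0.0242 and adjusted p = 0.693 by limma, and an exact permutation p of 0.0571, the smallest the design allows. Without N1 the log2 fold change was −1.83, and the call was also kept without T1. It was lost without N3 (−1.33), N8 (−1.47), N9 (−1.19), T3 (−1.38) or T10 (−1.42), and with a common FPKM total for each sample (−1.29), a scaling that moved the median over the tested genes to 0.12. With the sample number as a block it was −1.05 and not called. Summed endothelial markers were at 65.2 to 324 FPKM in non-tumor bone and 21.7 to 88.1 in OSA (3 of 6 tested called lower), with PECAM1, an endothelial adhesion molecule, at 144 FPKM in N9. Adipocyte markers summed to 27.8 to 217 and 10.3 to 44.6 FPKM (4 of 4 tested called lower). Their part in the KITLG difference was not tested.

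KIT (ENSCAFG00000002065, chr13:47107802-47192057), the stem cell factor receptor, varied more within the groups than between them. It was at 21.0, 11.6, 4.42 and 2.98 FPKM in N1, N3, N8 and N9 and at 10.7 in T1, 15.0 in T3 and 0.754 in T10. T10 was the lowest of all samples, and T1 and T3 lay inside the non-tumor range. The means were 10.004 ± 8.25 (SD, n = 4) and 8.82 ± 7.30 FPKM (SD, n = 3), and the log2 fold change was −0.35 (SE 0.88, 95% interval −2.33 to 1.63; limma p = 0.699, exact permutation p = 0.743). The sign turned without N1 (0.09) and without T10 (0.64). Mast cell markers summed to 2.44, 92.4, 62.1 and 5.21 FPKM in N1, N3, N8 and N9 and to 1.30 to 4.396 in the tumors. CPA3, a mast cell protease, was at 0.510, 11.2, 11.9 and 1.52 FPKM in the non-tumor samples and at 0.220 to 0.355 in the tumors, and 2 of 4 tested mast cell markers were called lower in OSA. Hematopoietic progenitor markers summed to 48.2 to 79.8 FPKM in non-tumor samples and 51.3 to 73.4 in tumors, with 0 of 4 called. The part of these cells in the KIT values was not tested.

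PDGFRA (ENSCAFG00000002057, chr13:46729690-46776044), the receptor for several PDGF dimers on mesenchymal cells, lies 331757 bases from KIT, and KDR, a VEGF receptor, follows KIT after 246340 bases. The gene reached 94.0 FPKM in N1, but 10.4, 3.98 and 7.55 in N3, N8 and N9, and it was at 43.6, 24.8 and 45.8 in T1, T3 and T10. All 3 tumors lay above N3, N8 and N9 and below N1. The means were 29.0 ± 43.4 (SD, n = 4) and 38.0 ± 11.5 FPKM (SD, n = 3), and the log2 fold change was 1.36 (SE 0.91, 95% interval −0.69 to 3.42; limma p = 0.167, exact permutation p = 0.229). The value moved with single samples, to 0.85 without N8. Without N1 the non-tumor mean was 7.31 FPKM, the log2 fold change 2.26 and the unadjusted limma p 0.00259, so the gene was called. With the sample number as a block, over N1, T1, N3 and T3 alone, the log2 fold change was 0.0434, as PDGFRA was lower in T1 than in N1 and higher in T3 than in N3. Fibroblast markers summed to 8468 FPKM in N1, 479 to 807 in N3, N8 and N9, and 14291, 845 and 9862 in T1, T3 and T10. The collagen genes COL1A2 (5931 FPKM) and COL3A1 (1420), which osteoblasts also express, made up most of the sum in N1. The other markers of the list but THY1 (24.6 in N1, 28.1 in N8) were also highest in N1 among the non-tumor samples, with DCN at 426 in N1 and 384 in N9. The part of these markers in the PDGFRA values was not tested. KIT and KDR, on the same stretch of chromosome 13, did not share the order of PDGFRA: KDR was at 7.23 to 15.4 FPKM in non-tumor samples and 1.997 to 9.84 in tumors (log2 fold change −0.95, not called).

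PDGFRB (ENSCAFG00000018214, chr4:58926308-58966380), the PDGF receptor characteristic of pericytes, was at 18.2, 18.3, 10.995 and 18.4 FPKM in N1, N3, N8 and N9. T1, T3 and T10 had 40.5, 62.2 and 9.19 FPKM. T1 and T3 exceeded every non-tumor sample, and T10 lay below all of them. The means were 16.5 ± 3.66 (SD, n = 4) and 37.3 ± 26.6 FPKM (SD, n = 3), and the log2 fold change was 0.80 (SE 0.64, 95% interval −0.64 to 2.25; limma p = 0.242, exact permutation p = 0.286). Without T10 it was 1.58 with an unadjusted limma p of 0.0129, past the threshold, as it was with the sample number as a block (1.41). It was 0.26 without T3 and 0.57 without T1. Summed pericyte markers were at 136, 17.4 and 31.3 FPKM in T1, T3 and T10 and at 32.2 to 209 in non-tumor samples. Different genes carried the high sums. In T1, MCAM (55.9 FPKM), NOTCH3 (36.4) and CSPG4 (23.5) made up most of it, with RGS5 at 9.77. In N9, RGS5 (104) and ABCC9 (64.1) did. The part of these markers in the PDGFRB values was not tested. CSF1R, the macrophage growth factor receptor that neighbours PDGFRB at 14196 bases, had a log2 fold change of −0.23 and was not called.

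T10 had the opposite balance of PDGF receptors to T3. PDGFRA was 1.08, 0.399 and 4.98 times PDGFRB in T1, T3 and T10, and 5.17 times in N1 against 0.362 to 0.568 in N3, N8 and N9. The 4 PDGF ligands all passed the filter and 0 were called. PDGFA, which binds PDGFRA, had the highest log2 fold change of them, 1.54 (limma p = 0.0630, exact permutation p = 0.171), with 38.9, 23.6 and 29.6 FPKM in T1, T3 and T10 and 37.4, 6.93, 2.76 and 10.3 in N1, N3, N8 and N9. As for PDGFRA, the tumors lay above N3, N8 and N9, while N1 lay among the tumors. PDGFD, a ligand of PDGFRB, was at 127 FPKM in T10, 39.8 in T1 and 3.09 in T3 (log2 fold change 1.31, not called), and at 4.20 to 32.2 in non-tumor samples. T10 thus combined the highest PDGFD with the lowest PDGFRB. PDGFB had the lowest log2 fold change, −0.46, and PDGFC was at −0.35.

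MET (ENSCAFG00000003406, chr14:55598660-55712194), the receptor of hepatocyte growth factor, was at 3.18, 6.53, 5.50 and 10.2 FPKM in N1, N3, N8 and N9 and at 5.77, 5.41 and 0.930 in T1, T3 and T10. T1 and T3 lay inside the non-tumor range, and T10 below it. The means were 6.35 ± 2.93 (SD, n = 4) and 4.04 ± 2.70 FPKM (SD, n = 3), and the log2 fold change was −0.66 (SE 0.61, 95% interval −2.02 to 0.70; limma p = 0.302, exact permutation p = 0.343). It stayed negative with each sample left out, between −0.98 and −0.07, the last without T10, but was positive with the sample number as a block (0.23).

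HGF (ENSCAFG00000006370, chr18:21329616-21410296), the ligand of MET, was at 2.88, 12.4, 2.76 and 1.39 FPKM in N1, N3, N8 and N9 and at 1.62, 8.70 and 2.52 in T1, T3 and T10. The samples numbered 3 were the highest of each group, and the groups overlapped throughout. The means were 4.87 ± 5.10 (SD, n = 4) and 4.28 ± 3.86 FPKM (SD, n = 3). The log2 fold change was −0.06 (SE 0.72, 95% interval −1.67 to 1.55; limma p = 0.938, exact permutation p = 0.857), and its sign turned without N3 (0.45), T1 (0.33) or T10 (0.12) and under 2 scalings, a common FPKM total (0.0398) and quantiles (0.00197). With the sample number as a block it was −0.52. Of 6 genes that activate HGF or hold its activation back, 5 were tested. SPINT2, an inhibitor of the proteases that activate HGF, was called higher at a log2 fold change of 1.55, with 16.3, 16.1, 14.9 and 3.24 FPKM in N1, N3, N8 and N9 and 14.7, 56.5 and 45.2 in T1, T3 and T10. T1 lay within the non-tumor samples, and the call was kept in 2 of 7 fits with a sample left out, in which the value ran from 1.05 to 2.12. PLAUR, the urokinase receptor, had the highest log2 fold change of the list, 1.66, and HGFAC, an HGF-activating protease, the lowest, 0.40. Neither was called.

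AXL (ENSCAFG00000005041, chr1:112701368-112727717), one of the TAM receptors for GAS6, was at 1.28, 6.70, 6.89 and 4.31 FPKM in N1, N3, N8 and N9 and at 3.95, 1.22 and 9.52 in T1, T3 and T10. The tumors held both the lowest and the highest value, in T3 and T10. The means were 4.80 ± 2.62 (SD, n = 4) and 4.90 ± 4.23 FPKM (SD, n = 3). The log2 fold change was −0.10 (SE 0.68, 95% interval −1.62 to 1.43; limma p = 0.890, exact permutation p = 0.914), and its sign turned without N3 (0.09), N8 (0.10) or T3 (0.47) and with a common FPKM total (0.12).

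GAS6 (ENSCAFG00000006421, chr22:60937077-61005869), whose listed interval is shared with TMEM255B, was at 15.6, 24.2, 16.6 and 26.6 FPKM in N1, N3, N8 and N9 and at 22.7, 35.8 and 6.62 in T1, T3 and T10. Here too the tumors held both extremes, but T3 was the highest and T10 the lowest, the reverse of AXL. The means were 20.8 ± 5.47 (SD, n = 4) and 21.7 ± 14.6 FPKM (SD, n = 3), and the log2 fold change was −0.18 (SE 0.59, 95% interval −1.51 to 1.15; limma p = 0.771, exact permutation p = 0.743). Without T10 it was 0.47, and with the sample number as a block 0.53. Of the other TAM receptors, TYRO3 was called higher at 1.87 (limma p = 0.0260, exact permutation p = 0.171), with 14.7, 1.83, 1.34 and 1.38 FPKM in N1, N3, N8 and N9 and 13.1, 15.2 and 12.3 in T1, T3 and T10. The tumors were alike and N1 lay among them, and of the 7 fits with a sample left out, in which the value ran from 1.61 to 2.53, the call was kept in the one without N1. MERTK, which macrophages use to take up dead cells, was at 3.103 to 12.7 FPKM in non-tumor samples and 11.7, 13.5 and 42.6 in T1, T3 and T10 (log2 fold change 1.39, limma p = 0.0538, exact permutation p = 0.114).

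**Figure D2:**
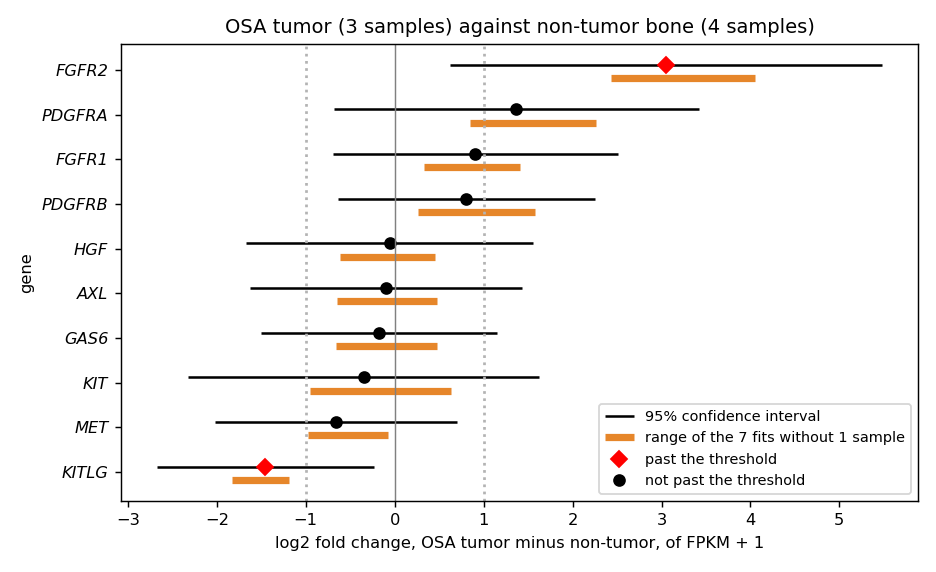
Log2 fold changes of FPKM + 1, OSA tumor minus non-tumor, with 95% intervals, for the 10 genes. The intervals of FGFR2 (0.62 to 5.48) and KITLG (−2.67 to −0.24) do not reach 0, and those of the other 8 do.

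Each receptor was set against its ligand in the same sample, as the log2 ratio of receptor to ligand FPKM with 1 added to both, to ask whether the members of a pair moved unequally. KIT over KITLG was 1.84, −0.47, −1.26 and −2.54 in N1, N3, N8 and N9, and 1.03, 1.86 and −1.41 in T1, T3 and T10. Receptor exceeded ligand in N1, T1 and T3, and ligand exceeded receptor in the other 4 samples. The means were −0.61 ± 1.84 (SD, n = 4) and 0.50 ± 1.70 (SD, n = 3), a difference of 1.10 (exact permutation p = 0.514) that ran from 0.42 without T3 to 2.05 without T10. MET over HGF was 0.10, −0.84, 0.79 and 2.23 in N1, N3, N8 and N9 and 1.37, −0.60 and −0.87 in T1, T3 and T10, a difference of −0.60 (exact permutation p = 0.514) that ran from −1.30 without T1 to −0.05 without N9. Within the samples numbered 1 and 3 the sign turned, with a tumor minus non-tumor difference of 1.26 for T1 and N1 and 0.24 for T3 and N3. AXL over GAS6 was −2.86, −1.71, −1.16 and −2.38 in the non-tumor samples and −2.26, −4.05 and 0.46 in T1, T3 and T10. Ligand exceeded receptor in every sample but T10. The difference was 0.08 (exact permutation p = 0.971), and it was −0.20 without N1, −0.04 without N9 and −1.12 without T10. Within the same numbers it was 0.61 for T1 and N1 and −2.34 for T3 and N3. For none of the 3 pairs was the difference larger than the spread between samples.

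**Figure D3:**
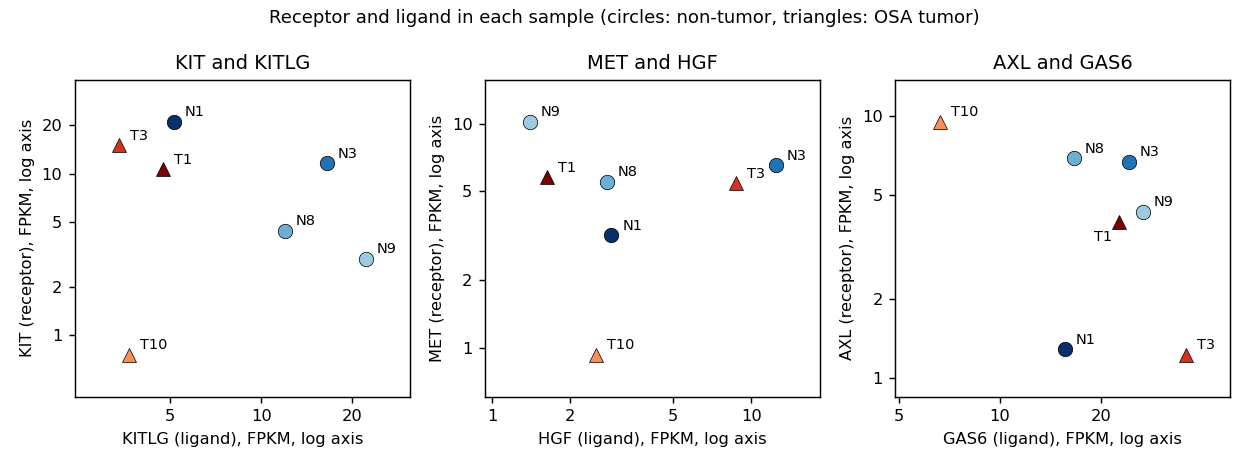
Receptor FPKM against ligand FPKM on log axes in each of the 7 samples, for KIT and KITLG, MET and HGF, and AXL and GAS6 (circles, non-tumor; triangles, OSA tumor). T10 is the lowest sample for KIT (0.754) and MET (0.930) and the highest for AXL (9.52), where GAS6 is lowest (6.62).

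In order of mean level the tumors ran from FGFR2, FGFR1, PDGFRA, PDGFRB and GAS6 down to KIT, AXL, HGF, MET and KITLG, and the non-tumor samples from FGFR1, PDGFRA, FGFR2, GAS6 and PDGFRB down to KITLG, KIT, MET, HGF and AXL. The ranges of every pair of neighbours in either order overlapped. Within single samples, PDGFRB was above GAS6 and GAS6 above KIT in 3 of 3 tumors, and no pair of neighbours was in the order of its means in 4 of 4 non-tumor samples. Among the tested genes of its sample, FGFR1 stayed between the 61.2nd and 96.7th percentiles, PDGFRB between the 53.7th and 89.8th, and MET between the 12.7th and 53.3rd. KIT ranged from the 11.2th percentile in T10 to the 74.8th in N1, and KITLG, at the 31.3rd to 32.0th in the tumors, reached the 71.6th in N9.

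For each receptor the genes with the most similar pattern were taken as those with the smallest RMS difference of log2(FPKM + 1), centred on the gene's mean, over the 7 samples and among 11850 genes with a symbol. Nearest to FGFR1 were ROR1, a receptor-like kinase of the WNT5A pathway (0.16), and EXT1, an enzyme of heparan sulfate synthesis (0.22), against a median of 1.21 over all genes. FGFR2 was nearest to CDH11, the osteoblast cadherin (0.40), and BAMBI, a TGF-beta pseudoreceptor (0.53; median 2.25). CDH11 was at 152, 28.9, 4.58 and 8.58 FPKM in N1, N3, N8 and N9 and at 220, 136 and 212 in T1, T3 and T10, with the same low N8 and N9 and high N1 as FGFR2. PDGFRA was nearest to POGK (0.31) and UGGT2 (0.31), PDGFRB to CTNNA1, alpha-catenin (0.23), and ST8SIA1 (0.25), and KIT to CD302 (0.44) and TRAF3IP2 (0.45). MET was nearest to PEAR1 (0.22) and SPCS1 (0.27), and AXL to SUN2 (0.28) and CDC42SE1 (0.29). These are descriptions over 7 points that share libraries, without a test, and the nearest of 11850 genes lie below the median by selection.

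The lists of the receptor pathways held 60 further genes, of which 59 were matched and 54 tested. Of these, 6 were called, all higher in OSA, which is 11.1% of those tested beside 6.86% of all genes called in either direction and 3.28% called higher. The log2 fold change was positive for 30 of the 54 and negative for 24, with a median of 0.25 against −0.02 over all tested genes, and the sign of the median of each of the 7 lists was the same under the 3 other scalings. TYRO3 and SPINT2 are given above.

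The other calls were in the ligands, the adaptors and the feedback genes. VEGFA, the ligand of KDR, was at 49.7, 24.7, 28.6 and 82.5 FPKM in N1, N3, N8 and N9 and at 95.4, 134 and 171 in T1, T3 and T10. The tumors lay above every non-tumor sample, the log2 fold change was 1.63 (limma p = 0.0154, exact permutation p = 0.0571), and of 7 fits with a sample left out (1.39 to 1.95) the call was lost in the one without T10. FRS2, the adaptor that links FGF receptors to RAS, was at 2.40 to 7.39 FPKM in non-tumor samples and at 11.04, 7.48 and 20.8 in T1, T3 and T10 (log2 fold change 1.35), with the call kept in 3 of 7 such fits (0.98 to 1.66). SPRED1, an inhibitor of RAS signaling, was at 10.9, 8.92, 2.72 and 8.24 FPKM in N1, N3, N8 and N9 and at 16.9, 25.4 and 32.6 in T1, T3 and T10. Its groups did not overlap, and its call (log2 fold change 1.66, limma p = 0.0123, adjusted p = 0.693, exact permutation p = 0.0571) was kept in 7 of 7 such fits (1.29 to 1.90). With the sample number as a block over N1, T1, N3 and T3, the calls of SPRED1, FRS2, TYRO3 and SPINT2 were lost. PHLDA1, which growth factors induce, was at 0.296 to 3.75 FPKM in non-tumor samples and at 14.4, 6.03 and 3.67 in T1, T3 and T10 (1.82), with the call lost without T1 (1.35 to 2.21 over the fits).

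The related receptors had a median log2 fold change of −0.23, with FLT3 lowest at −1.02, and the related ligands one of −0.19, with IL34, a ligand of CSF1R, lowest at −1.05. Among the 12 adaptors and signal transducers PIK3R1, the regulatory subunit of PI3K, was lowest at −1.24, with 5.56 to 16.4 FPKM in tumors and 10.2 to 73.7 in non-tumor samples. SPRY1, another feedback inhibitor, was lowest of the 11 tested feedback and target genes at −0.51. None of these 4 genes was called.

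**Figure D4:**
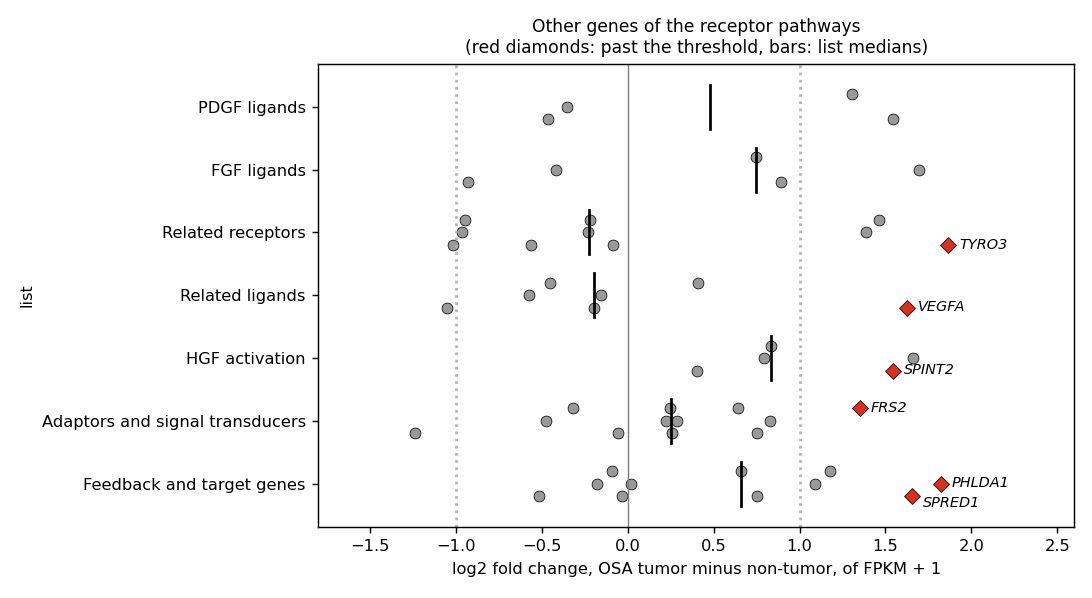
Log2 fold change of FPKM + 1, OSA tumor minus non-tumor, for the 54 tested pathway genes in 7 lists. Red diamonds mark the 6 genes past the threshold, all above 1, dotted lines a log2 fold change of 1 either way, and bars the median of each list.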

How the data were processed

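Gene expression was measured by paired-end RNA sequencing of 4 non-tumor and 3 OSA samples, grouped by the labels. After trimming with Trim Galore, the authors aligned the reads to CanFam3.1 with TopHat and an Ensembl annotation, and deposited FPKM per gene and sample from Cuffdiff. Exact tool versions and the normalization between libraries are not given in the sources used here. FPKM depends on the annotated transcripts and on abundant genes: a single feature held 47.3% of the FPKM of T1. No counts were analysed, so depth was estimated only as a ratio to N1, through the steps between low FPKM values. The authors' own comparison (group FPKM, fold changes, a test statistic, p-values and q-values) was not used, apart from its intervals, with 1 added to each start. The number of per-sample columns left unused was 0.

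Genes that averaged 1 FPKM or more were tested on log2(FPKM + 1), which understates changes of low genes, with limma 3.58.1 (R 4.3.3), empirical Bayes and a mean-variance trend, without pairing. Calls needed a log2 fold change of 1 or more in size with an unadjusted p under 0.05. Adjusted p-values were computed over all 13507 genes. Exact permutation tests (Python 3.11.15, numpy 2.4.6) took all 35 ways to divide the samples into 4 and 3. The fit was tested on simulated data. Named were the 10 genes, all PDGF and tested FGF ligands, every called gene and the highest and lowest gene of each pathway list. The 2 genes nearest each receptor were also named. Of the first markers of the marker lists, CPA3, PECAM1, RGS5, COL1A2 and RUNX2 were named, and those of the other lists were not. FGFR3, MERTK, KDR, CSF1R, SP7, SPP1, COL3A1, THY1, DCN, MCAM, NOTCH3, CSPG4 and ABCC9 were added after their values were seen. Marker lists covered mast cells, hematopoietic progenitors, erythroid cells, granulocytes, macrophages, endothelium, pericytes, fibroblasts, osteoblasts, skeletal muscle and adipocytes. Macrophage markers summed to 51.3 to 972 FPKM in non-tumor samples and 171 to 512 in tumors, with 0 of 7 called. Of the fibroblast and osteoblast markers, 1 of 8 and 1 of 9 tested were called higher, and of the pericyte markers 0 of 7 were called. The genes followed and all lists were chosen with earlier results of these data known. Alternatives were pseudocounts of 0.1 and 0.01, other filters and scalings, no trend, sample weights, replicate blocks and leaving out each sample.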

Additional observations from a re-analysis of the deposited data

Results flagged for a closer look

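In 6 cases a value lay far from the rest of the 4 non-tumor samples, with a gap to the nearest sample, relative to the group's whole range, above Dixon's 95% critical value for 4 samples, on the scale of FPKM. They were PDGFRA in N1 at 94.0 FPKM (nearest 10.4), FGFR2 in N1 at 76.8 (nearest 14.0), TYRO3 in N1 at 14.7 (nearest 1.83), PDGFRB in N8 at 10.995 (nearest 18.2), HGF in N3 at 12.4 (nearest 2.88) and SPINT2 in N9 at 3.24 (nearest 14.9). Chance gives such a value in about 1 of 20 groups of normally distributed values, which FPKM need not be, and 27 groups were examined. On the scale of log2(FPKM + 1) 3 of the 6 remained, TYRO3, PDGFRB and SPINT2, with no others. Of the 6, 3 were in N1, and the log2 fold changes without it were 2.26 for PDGFRA, 4.05 for FGFR2 and 2.53 for TYRO3.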

How the results depend on the processing

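KITLG, PDGFRA, PDGFRB, FGFR1 and FGFR2 kept their direction under every alternative, PDGFRA at only 0.0434 with the fixed block below, and MET under all but that block. The number of genes called was 926, between 319 (without N8) and 1997 (without N1) with a sample left out, and 1857 with sample weights; it was 603 without T3 and 424 without T10. Of the 10 genes, 2 were called, 0 to 3 with a sample left out, and 1 with FPKM rescaled to the same sum, where 35.6% of calls were higher in OSA, against 47.8% here, 57.2% after quantile normalization and 50.4% with median ratios. That rescaling gave 0.0398 for HGF and 0.12 for AXL, and quantiles gave 0.00197 for HGF. With a sample left out, log2 fold changes ran from −0.96 to 0.64 for KIT, −0.62 to 0.45 for HGF, −0.65 to 0.47 for AXL and −0.66 to 0.47 for GAS6, and the receptor over ligand differences from 0.42 to 2.05 for KIT, −1.30 to −0.05 for MET and −1.12 to 1.13 for AXL. PDGFRA was also called with sample weights (1.95). Of 11 alternatives that did not leave out 1 sample, SPINT2 was called in 6, FRS2 in 9, TYRO3 and SPRED1 in 10 (lost with the fixed block), and VEGFA and PHLDA1 in 11.

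Numbers 1 and 3 occur in both groups, and neither the labels nor their extraction protocol, which speaks of matched adjacent tissue, say that a number marks a dog. The deviations from the group means correlated at 0.42 (N1 and T1) and 0.21 (N3 and T3), across genes. Between samples of unlike numbers these correlations were lower, from −0.27 (N1 and T3) to 0.14 (N9 and T10). With a fixed replicate block over these 4 samples, 241 genes were called and 1 of the 10, PDGFRB (1.41); KITLG (−1.05) and FGFR2 (1.22) were not, MET was at 0.23 and GAS6 at 0.53. A random replicate block over 7 samples, with an estimated correlation of 0.46 within numbers, gave 1062 genes, 2 of the 10, and 0.0418 for GAS6. The ratios were compared within these numbers as a replicate block chosen after seeing the data: the mean differences over the 2 pairs were 0.76 for KIT, 0.75 for MET and −0.87 for AXL, the last 2 of the opposite sign to the unpaired values, with 0.5 the smallest exact p possible. Exact tests over the 7 samples cannot go below 0.0571, and the depth of N8 is known only up to a factor of 2.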
